A study of Rattus norvegicus with 11 samples.

Results

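Imprinted growth genes were followed in rat primary hippocampal neurons that expressed introduced forms of the linker histone H1.4. The set held 10 genes named by symbol: Igf2, H19, Dlk1, Meg3, Peg3, Ndn, Cdkn1c, Grb10, Plagl1 and Mest. Of these, 9 had a row among the 42172 gene rows of the count files, and all 9 were among the 17294 genes that passed the low-count filter and were tested. Meg3 had no row and was not analysed here. Igf2 and H19 were put in the set because their counts were low in WT H1.4 neurons, so their values are given as a description with no test in any comparison, since the comparisons share libraries. The other 7 measured genes were not picked by value, and their tests are given.

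The neurons came from CD (Sprague Dawley) rats and were lysed at day 7 in vitro. H1.4 CFT, the H1.4 mutant with a C-terminal frameshift tail, was expressed in 4 libraries, exogenous wild-type H1.4 (WT H1.4) in 4 and GFP as the control in 3 (numbered 2 to 4). All 3 groups carried an introduced gene on top of the rat's own, and the vector, its promoter and the level of the introduced protein are not given in the sources used here. The libraries are called biological replicates, with no word on whether they came from separate dissections, so p-values measure the spread between these libraries.

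The libraries held between 12070941 and 18846492 reads assigned to genes, and 1 CPM (the read count relative to the TMM-scaled library size) was worth between 11.9 and 19.3 reads. The rat H1f4 row held 5 to 8 reads in H1.4 CFT, 1 to 5 in WT H1.4 and 0 to 2 in GFP libraries, too few to check the labels of the introduced genes. All 16 neuron markers were detected in every group, and their summed level was 5428 to 6367 CPM in H1.4 CFT, 7970 to 8071 CPM in WT H1.4 and 7772 to 7997 CPM in GFP libraries. Astrocyte markers were also abundant, with a summed level of 2569 to 2626 CPM in H1.4 CFT, 1989 to 2129 CPM in WT H1.4 and 2491 to 2639 CPM in GFP libraries. In such bulk libraries, fewer cells of a type and less RNA per cell cannot be told apart.

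Genomic imprinting silences the copy of a gene inherited from the mother or from the father, through DNA methylation set in the germ line. Many imprinted genes control growth. Paternally expressed genes often promote it and maternally expressed genes often restrain it. Igf2 and H19 are neighbours under a shared imprinting control region bound by CTCF, and in most mouse tissues the paternal copy makes Igf2 and the maternal copy makes H19. In the brain, Igf2 is made mainly by choroid plexus, meninges and vessels, and several other imprinted genes are highly expressed in neurons. The count files do not separate the parental copies, so all values below are sums over both.

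Promoter sequences are shown for their CpG content, since imprinting marks act on CpG pairs, and for the letters of 3 motifs searched in them. They are taken from RefSeq on the GRCr8 build, run from 250 bases before to 50 bases after the gene start, and cover 8 of the 10 genes with 9 promoters (none for H19 and Cdkn1c). Those of Igf2 are shown because its level put it in the set, and those of Plagl1, Peg3 and Ndn because these 3 genes were higher in H1.4 CFT neurons. Capitals mark GGGCGG, the GC box, on either strand (CCGCCC when it lies on the other strand), or in Peg3 TGACGTCA, the cAMP response element. The spans are chr1:207253931-207254230 (minus strand) and chr1:207250426-207250725 (minus strand) for Igf2, chr1:9297214-9297513 (plus) for Plagl1, chr1:76130744-76131043 (plus) for Peg3 and chr1:125260809-125261108 (plus) for Ndn.
Igf2 promoter 1: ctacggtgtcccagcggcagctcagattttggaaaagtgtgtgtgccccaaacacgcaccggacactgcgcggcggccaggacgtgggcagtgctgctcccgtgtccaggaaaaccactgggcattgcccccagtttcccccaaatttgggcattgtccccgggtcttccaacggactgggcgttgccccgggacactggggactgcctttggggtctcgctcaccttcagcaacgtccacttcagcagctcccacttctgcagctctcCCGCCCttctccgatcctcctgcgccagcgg
Igf2 promoter 2: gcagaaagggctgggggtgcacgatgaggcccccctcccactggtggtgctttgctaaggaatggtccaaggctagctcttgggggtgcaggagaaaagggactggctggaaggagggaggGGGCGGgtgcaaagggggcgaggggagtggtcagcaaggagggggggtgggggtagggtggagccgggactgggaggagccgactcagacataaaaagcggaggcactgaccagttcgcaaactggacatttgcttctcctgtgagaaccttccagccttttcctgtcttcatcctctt
Plagl1: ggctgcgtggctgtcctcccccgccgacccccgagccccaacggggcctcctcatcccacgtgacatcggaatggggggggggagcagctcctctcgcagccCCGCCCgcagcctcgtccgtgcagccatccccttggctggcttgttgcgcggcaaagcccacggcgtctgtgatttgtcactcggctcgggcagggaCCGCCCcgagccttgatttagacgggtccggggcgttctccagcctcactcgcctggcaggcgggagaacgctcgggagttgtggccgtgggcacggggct
Peg3: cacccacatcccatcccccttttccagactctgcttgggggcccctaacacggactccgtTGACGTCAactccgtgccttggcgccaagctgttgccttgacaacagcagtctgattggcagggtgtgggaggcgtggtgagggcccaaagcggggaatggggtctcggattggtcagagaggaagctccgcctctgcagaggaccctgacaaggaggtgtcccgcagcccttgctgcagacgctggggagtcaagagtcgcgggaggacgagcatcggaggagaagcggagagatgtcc
Ndn: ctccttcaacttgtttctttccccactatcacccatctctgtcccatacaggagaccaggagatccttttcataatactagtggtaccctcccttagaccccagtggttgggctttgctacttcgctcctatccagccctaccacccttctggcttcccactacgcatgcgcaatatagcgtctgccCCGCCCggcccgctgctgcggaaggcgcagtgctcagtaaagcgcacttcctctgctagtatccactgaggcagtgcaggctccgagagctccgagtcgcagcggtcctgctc

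These promoters differ in CpG content. The Plagl1 promoter held 29 CpG pairs, that of Peg3 16, that of Ndn 14, and the pair of Igf2 promoters 19 and 7, against a median of 7 over 33465 promoters of the same length. The promoters of Dlk1 and Grb10 held 45 and 44 CpG pairs, more than 98.3% and 98.1% of all promoters. Mest had 18 and Meg3 13. The GC box stood in all of them except Peg3 and Meg3, and in 33.1% of all promoters. The cAMP response element stood once in Peg3 and once in Meg3, and in 1.83% of all promoters. TATAAA was found in Meg3 alone among the 8 genes, and in 14.2% of all promoters. None of these motif matches overlaps another in the sequences shown. A match describes the letters only.

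Igf2, the fetal insulin-like growth factor, was lowest in WT H1.4 neurons. It had 5.73, 7.26, 8.97 and 8.97 CPM in H1.4 CFT libraries, 2.76, 2.17, 2.54 and 2.12 CPM in WT H1.4 libraries and 6.32, 6.21 and 5.35 CPM in GFP libraries. Every WT H1.4 library lay below every library of the other groups, while H1.4 CFT and GFP libraries overlapped. The means were 7.73 ± 1.56 CPM in H1.4 CFT, 2.40 ± 0.305 CPM in WT H1.4 and 5.96 ± 0.532 CPM in GFP (SD, n = 4, 4 and 3). These rest on 101 to 173, 30 to 51 and 74 to 89 reads per library. The fitted log2 fold change was 1.68 (3.20-fold higher) in H1.4 CFT neurons against WT H1.4, 0.38 in H1.4 CFT against GFP, and -1.30 (2.46-fold lower) with WT H1.4 against GFP. Within H1.4 CFT, libraries 3 and 4 were higher than libraries 1 and 2. The log2 difference from GFP was 0.03 in libraries numbered 1 and 2, where GFP has 1 library, and 0.64 in those numbered 3 and 4. In GRCr8 Igf2 overlaps LOC102548568, a protein-coding entry, and reads of the pair cannot be told apart.

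H19, a maternally expressed non-coding RNA that is the precursor of miR-675, had the same order of WT H1.4 below the other groups. It had 2.55, 2.36, 2.33 and 3.53 CPM in H1.4 CFT libraries, 1.41, 0.579, 0.937 and 0.910 CPM in WT H1.4 libraries and 2.47, 3.19 and 3.25 CPM in GFP libraries. All WT H1.4 libraries were lower than all others, and H1.4 CFT and GFP libraries overlapped. With 41 to 68, 8 to 26 and 34 to 54 reads, H19 was less precisely counted than Igf2. Its log2 fold change was 1.46 (2.75-fold higher) in H1.4 CFT neurons against WT H1.4, -0.14 in H1.4 CFT against GFP, and -1.60 (3.02-fold lower) with WT H1.4 against GFP. In libraries numbered 1 and 2 the last value was -1.24.

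The miRNAs encoded within H19 and Igf2 are shown, from RefSeq, since they lie within the spans of this pair. Capitals mark the seed, bases 2 to 8. No pair of them shares a seed.
rno-miR-675-5p: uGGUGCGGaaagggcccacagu
rno-miR-675-3p: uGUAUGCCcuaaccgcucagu
rno-miR-483-5p: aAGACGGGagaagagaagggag
rno-miR-483-3p: cACUCCUCcccucccgucuugu
The rows of Mir675 and Mir483 held 0 counts in all 11 libraries, which were made from polyadenylated RNA, so mature miRNAs were not measured.

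**Figure D1:**
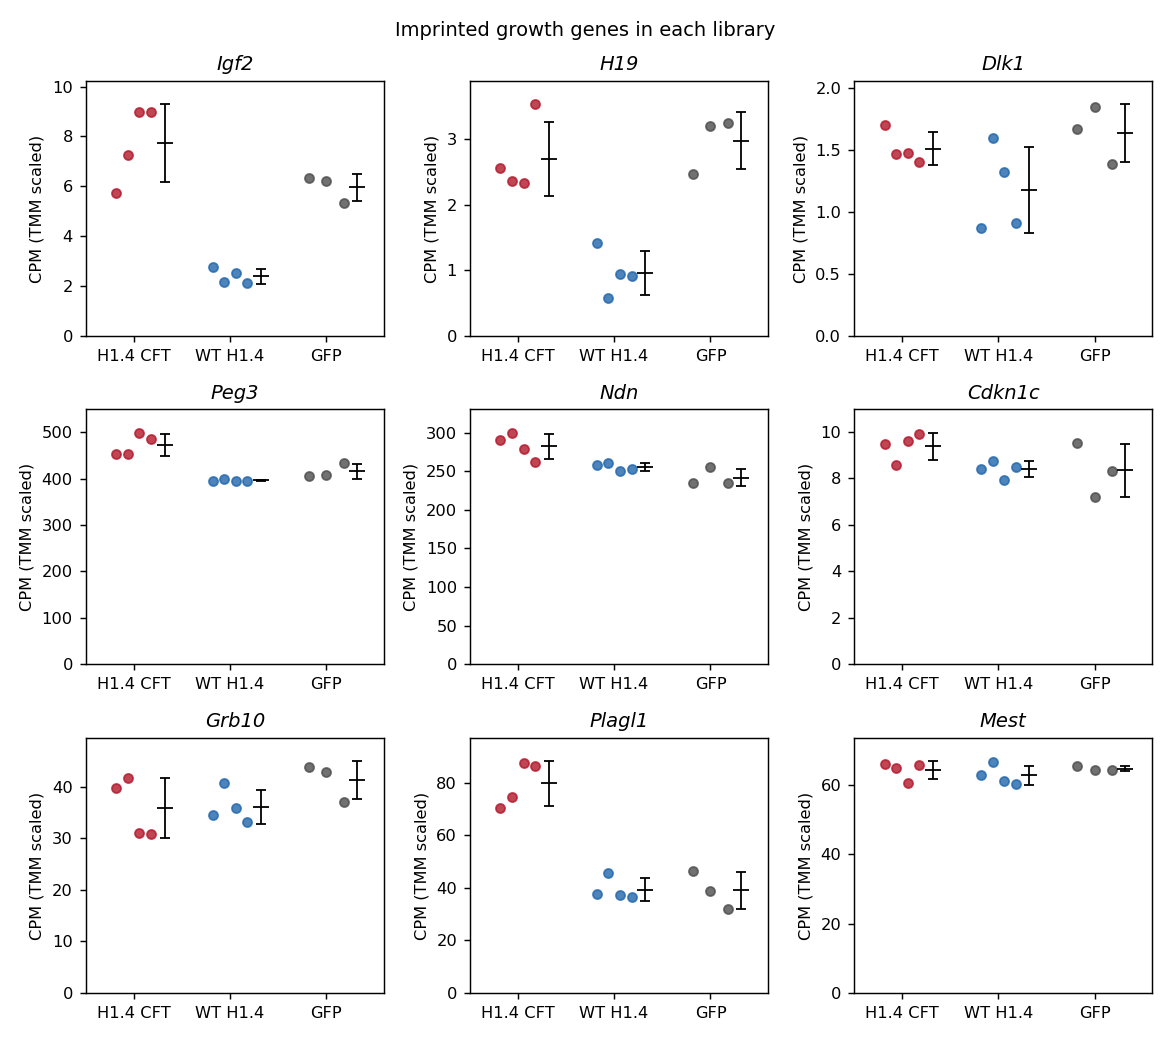
Level of each of the 9 measured genes (CPM, TMM scaled, axes from 0) in H1.4 CFT, WT H1.4 and GFP libraries, left to right, with 1 point per library in order of its number and the mean ± SD beside it. Igf2 and H19 are lowest in WT H1.4, at 2.12 to 2.76 and 0.579 to 1.41 CPM, while Plagl1 is highest in H1.4 CFT, at 70.5 to 87.5 CPM.

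Around Igf2 and H19, the neighbouring genes in the GRCr8 table (a different build, used for names and order only) were followed as well. LOC102548505, a long non-coding RNA whose span overlaps H19, had 4.09, 3.83, 3.75 and 4.30 CPM in H1.4 CFT libraries, 2.33, 1.23, 0.827 and 1.64 CPM in WT H1.4 libraries and 3.20, 4.78 and 3.97 CPM in GFP libraries. Its WT H1.4 libraries were all below the others. It is given without a test, since the strand setting of the counting is not given and its reads and those of H19 cannot be told apart. Ins2, an insulin gene on the other side of Igf2, had 10.8, 12.3, 10.6 and 10.6 CPM in H1.4 CFT libraries, 6.61, 8.61, 6.51 and 7.95 CPM in WT H1.4 libraries and 8.28, 8.98 and 9.32 CPM in GFP libraries. H1.4 CFT libraries were above all others for Ins2. Its log2 fold change was 0.59 (SE 0.11) for H1.4 CFT neurons against WT H1.4, with an adjusted p of 0.000499 by edgeR's quasi-likelihood test (Benjamini-Hochberg over all genes tested). Here and below, a gene that rose or fell by a value did so on the log2 scale. Ins2 did not pass against GFP (0.32, adjusted p = 0.0558 by edgeR), but did with the replicate number as a block (0.35, adjusted p = 0.0384) and under a filter of 5 CPM in 3 libraries (0.34, adjusted p = 0.0397). Mrpl23, which encodes a mitochondrial ribosomal protein and lies on the H19 side, had 18.7 to 21.2 CPM in H1.4 CFT, 18.1 to 22.03 CPM in WT H1.4 and 16.6 to 21.7 CPM in GFP libraries, and Tnnt3, a muscle troponin, was counted at 6 to 21 reads. Neither passed the test in any comparison.

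Plagl1 changed most among the genes that were not picked by value. It encodes a zinc finger transcription factor, paternally expressed, that has been described in mouse as a regulator of other imprinted genes. It had 70.5, 74.6, 87.5 and 86.3 CPM in H1.4 CFT libraries, 37.8, 45.7, 37.2 and 36.3 CPM in WT H1.4 libraries and 46.3, 38.9 and 32.04 CPM in GFP libraries. All H1.4 CFT libraries stood above the rest, and WT H1.4 and GFP libraries overlapped. Against WT H1.4, Plagl1 rose 2.04-fold in H1.4 CFT (95% interval 1.71 to 2.42, log2 fold change 1.03, SE 0.11, adjusted p = 4.60e-05 by edgeR). Against GFP it rose 2.05-fold (95% interval 1.69 to 2.48, SE 0.13 on the log2 scale, adjusted p = 0.000122 by edgeR). For WT H1.4 against GFP the log2 fold change was 0.0078 with a 95% interval of -0.28 to 0.29. The rise was larger in libraries numbered 3 and 4 (log2 1.24 against WT H1.4, 1.31 against GFP) than in those numbered 1 and 2 (0.81 against WT H1.4, 0.64 against GFP). The value of 0.64 rests on 1 GFP library, which is assumed to vary like the other groups. The labels name no batch for these numbers, and the difference between them was not tested. In GRCr8 Plagl1 overlaps LOC134484946, a non-coding RNA with no row in the files.

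Peg3, a paternally expressed zinc finger gene linked to growth and maternal behaviour in mouse, rose by less. It had 453, 453, 499 and 486 CPM in H1.4 CFT libraries, 395, 399, 394 and 395 CPM in WT H1.4 libraries and 406, 407 and 433 CPM in GFP libraries. The 3 groups did not overlap, with H1.4 CFT highest and WT H1.4 lowest. The log2 fold change was 0.26 (SE 0.041, adjusted p = 9.46e-05 by edgeR) for H1.4 CFT neurons against WT H1.4 and 0.19 (SE 0.045, adjusted p = 0.00383 by edgeR) for H1.4 CFT against GFP. WT H1.4 against GFP did not pass (-0.07, adjusted p = 0.599 by edgeR). Peg3 overlaps Apeg3, its antisense partner, in GRCr8, and without the strand setting the reads of this pair cannot be told apart.

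Ndn encodes necdin, a growth suppressor of post-mitotic neurons that is expressed from the paternal copy. It had 290, 300, 278 and 262 CPM in H1.4 CFT libraries, 258, 260, 250 and 253 CPM in WT H1.4 libraries and 235, 255 and 235 CPM in GFP libraries. H1.4 CFT libraries lay above all others, the lowest of them by a narrow margin over the highest WT H1.4 library. Ndn rose in H1.4 CFT by 0.15 on the log2 scale against WT H1.4 (SE 0.045, adjusted p = 0.0143 by edgeR) and by 0.23 against GFP (SE 0.049, adjusted p = 0.0016 by edgeR). Without H1.4 CFT replicate 2 the first of these missed the threshold (0.12, adjusted p = 0.0530 by edgeR). WT H1.4 against GFP gave 0.08 with an adjusted p of 0.576 by edgeR.

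The remaining 4 genes did not pass in any comparison. Dlk1, a paternally expressed transmembrane relative of the Notch ligands, had 1.3999 to 1.70 CPM in H1.4 CFT, 0.867 to 1.59 CPM in WT H1.4 and 1.38 to 1.85 CPM in GFP libraries, on 15 to 30 reads each. Its log2 fold change for WT H1.4 against GFP was -0.48 with a 95% interval of -1.08 to 0.12, which spans 0. Cdkn1c, the maternally expressed cyclin-dependent kinase inhibitor p57, had 8.56 to 9.90 CPM in H1.4 CFT, 7.94 to 8.75 CPM in WT H1.4 and 7.22 to 9.52 CPM in GFP libraries. Its largest log2 difference was 0.17 (95% interval -0.09 to 0.42), between H1.4 CFT and GFP.

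Grb10 encodes an adaptor that dampens insulin and IGF receptor signalling, and in mouse neurons it is expressed from the paternal copy. It had 39.8, 41.8, 31.1 and 30.8 CPM in H1.4 CFT libraries, 34.6, 40.8, 35.9 and 33.1 CPM in WT H1.4 libraries and 43.9, 43.0 and 37.1 CPM in GFP libraries. The groups overlapped, and H1.4 CFT libraries 3 and 4 were lower than libraries 1 and 2. H1.4 CFT against GFP gave -0.20 (SE 0.11, adjusted p = 0.195 by edgeR). The same contrast passed with the replicate number as a block (-0.22, adjusted p = 0.0302 by edgeR) and without H1.4 CFT replicate 2 (-0.28, adjusted p = 0.0447 by edgeR). Mest, a paternally expressed gene for a hydrolase-like protein, had 60.6 to 66.1 CPM in H1.4 CFT, 60.4 to 66.7 CPM in WT H1.4 and 64.3 to 65.7 CPM in GFP libraries. Its 95% interval for H1.4 CFT against GFP ran from -0.12 to 0.10 on the log2 scale.

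Counted together, 3 of the 7 genes with a test were higher and 0 lower in H1.4 CFT neurons than in WT H1.4, where 35.9% of all genes tested passed, 16.7% as higher and 19.2% as lower. Against GFP, again 3 were higher and 0 lower in H1.4 CFT, where 29.5% of all genes passed, 13.3% as higher and 16.2% as lower. For WT H1.4 against GFP, 0 of 7 passed by edgeR, where 0.943% of all genes passed (0.434% as higher, 0.509% as lower). At an unadjusted p under 0.05 the count there was also 0, and it was 0 by DESeq2 and by limma-voom. The CPM values of 3 of the 7 did not overlap between H1.4 CFT libraries and WT H1.4 and of 3 between H1.4 CFT and GFP, against 34.6% and 35.5% of all genes, and 1 (Peg3) did not overlap between WT H1.4 and GFP, against 12.2%. The median log2 fold change of the 7 was 0.16 in H1.4 CFT neurons against WT H1.4, 0.17 in H1.4 CFT against GFP and -0.04 in WT H1.4 against GFP, beside 0.02, 0.01 and -0.0011 over all genes tested. The comparisons against WT H1.4 and against GFP share the H1.4 CFT libraries.

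**Figure D2:**
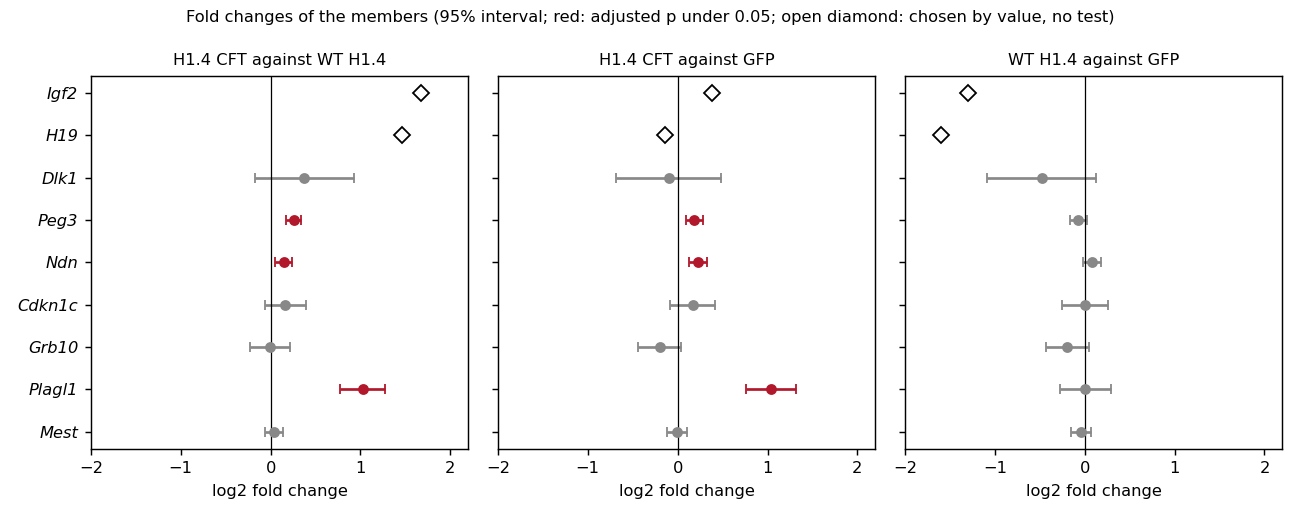
Log2 fold change of the 9 measured genes in the 3 comparisons, with 95% intervals and red points for an adjusted p under 0.05 (edgeR); open diamonds are Igf2 and H19, which were chosen by value and have no test. Plagl1 stands at 1.03 in both comparisons of H1.4 CFT and at 0.0078 for WT H1.4 against GFP.

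Some marker genes of other cells were also lower in WT H1.4, and most members of these lists did not pass. Of 15 tested fibroblast and meningeal markers, 3 fell in WT H1.4 against GFP, 0 rose and 12 did not pass, with a median log2 fold change of -0.04 beside -0.0011 over all genes tested. In this comparison 0.434% of all genes tested rose and 0.509% fell. The markers that fell were the collagen genes Col1a1, Col1a2 and Col3a1. Among the 12, Postn averaged 5.55 CPM in WT H1.4 and 3.71 CPM in GFP libraries, and Pdgfra 40.3 and 35.3 CPM, with the higher mean in WT H1.4. Col1a2 had 11.6, 12.8, 12.9 and 14.2 CPM in H1.4 CFT libraries, 8.45, 5.28, 5.57 and 6.43 CPM in WT H1.4 libraries and 11.3, 15.9 and 14.3 CPM in GFP libraries. WT H1.4 libraries were again all the lowest. Col1a2 fell by 1.09 on the log2 scale in WT H1.4 against GFP (adjusted p = 0.00115 by edgeR), and Col3a1 fell by 1.17 (adjusted p = 0.00141 by edgeR). Libraries numbered 1 and 2 alone gave adjusted p-values of 0.0715 for Col1a2 and 0.121 for Col3a1 (edgeR). Col1a1, whose span overlaps Sgca, fell by 0.93 (adjusted p = 0.0267 by edgeR), a call that was lost without WT H1.4 replicate 2, 3 or 4 or GFP replicate 3 (adjusted p up to 0.122 by edgeR). In H1.4 CFT neurons against WT H1.4, 16.7% of all genes rose and 19.2% fell. There 6 of the 15 markers rose, and Postn, an extracellular matrix protein, fell by 0.80. In H1.4 CFT against GFP, where 13.3% of all genes rose and 16.2% fell, Crabp2 rose by 0.57 and no other marker passed. This call was lost without GFP replicate 3 (0.49, adjusted p = 0.0582 by edgeR). The count was 3 without WT H1.4 replicate 3, 2 without H1.4 CFT replicate 4 or GFP replicate 2, and 5 with the replicate number as a block. In libraries numbered 3 and 4, 13 fibroblast markers passed in H1.4 CFT neurons against WT H1.4 (10 higher, 3 lower), 7 in H1.4 CFT against GFP and 5 in WT H1.4 against GFP, all 5 lower. In those libraries 1596 of all genes passed in WT H1.4 against GFP, where 163 did over all libraries. No share over all genes is given there for the comparisons of H1.4 CFT, so their counts have no background beside them. Here and below, fits on libraries numbered 3 and 4 gave far smaller p-values for some genes than the main fit. Their counts are not comparable with those over all libraries. The summed level of all 23 fibroblast markers with a row was 233 to 294 CPM in H1.4 CFT, 196 to 239 CPM in WT H1.4 and 207 to 259 CPM in GFP libraries, so the sums of the groups overlapped, and none of the 23 was at 0 throughout a group. These sums weigh Mfap4, Ccn3 and Pdgfra most. The 3 averaged 60.9, 52.3 and 40.3 CPM in WT H1.4 and 57.5, 49.9 and 35.3 CPM in GFP libraries. The collagen genes that fell weigh less, so the overlap does not describe them.

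Of 12 tested astrocyte markers, 6 fell in WT H1.4 against GFP, 0 rose and 6 did not pass, with a median log2 fold change of -0.27. Over all genes, 0.509% fell and 0.434% rose in this comparison. Without GFP replicate 3 or without GFP replicate 4, 3 markers fell. In libraries numbered 3 and 4, where 647 of all genes fell and 949 rose, 9 markers fell and 1 rose. Among those that did not pass over all libraries, Aldoc averaged 276 CPM in WT H1.4 and 266 CPM in GFP libraries. Gfap, the glial intermediate filament, fell by 0.82 (adjusted p = 5.21e-05 by edgeR), and Mlc1, a membrane protein of astrocyte end feet, fell by 0.40 (adjusted p = 0.00118 by edgeR). In H1.4 CFT neurons against WT H1.4, 8 of the 12 rose, and in H1.4 CFT against GFP 2 rose. Over all genes, 16.7% and 13.3% rose in these comparisons. The summed astrocyte levels given above did not overlap between WT H1.4 and either other group.

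Endothelial and mural markers summed to 54.2 to 61.0 CPM in H1.4 CFT, 46.0 to 47.4 CPM in WT H1.4 and 51.7 to 55.5 CPM in GFP libraries. Of 13 tested, 3 rose in H1.4 CFT neurons against WT H1.4, 3 rose against GFP, and 1, the smooth muscle gene Tagln, fell in WT H1.4 against GFP by 0.62 (adjusted p = 0.0101 by edgeR; 0.0606 without GFP replicate 3 and 0.141 without GFP replicate 4). Over all genes, 16.7% rose in H1.4 CFT neurons against WT H1.4 and 13.3% rose against GFP. In WT H1.4 against GFP 0.434% rose and 0.509% fell. Tie1 and Kcnj8 were each at 0 in 10 libraries. Choroid plexus markers summed to 26.3 to 39.3 CPM in H1.4 CFT, 23.4 to 26.5 CPM in WT H1.4 and 24.3 to 27.7 CPM in GFP libraries, with Ttr, their most typical transcript, at 11 to 43 reads and Kl at 0 in 5 libraries. Of 10 tested, 4 rose in H1.4 CFT neurons against WT H1.4 (1 without H1.4 CFT replicate 3 or replicate 4), 2 rose against GFP (1 without H1.4 CFT replicate 3 or 4 or GFP replicate 2 or 3), and 0 passed in WT H1.4 against GFP by edgeR, DESeq2 or limma-voom (1 at an unadjusted p under 0.05, and 1 that passed without WT H1.4 replicate 3). The shares over all genes given above hold for these comparisons as well. The part of these cell types in the levels of Igf2 and H19 was not tested.

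**Figure D3:**
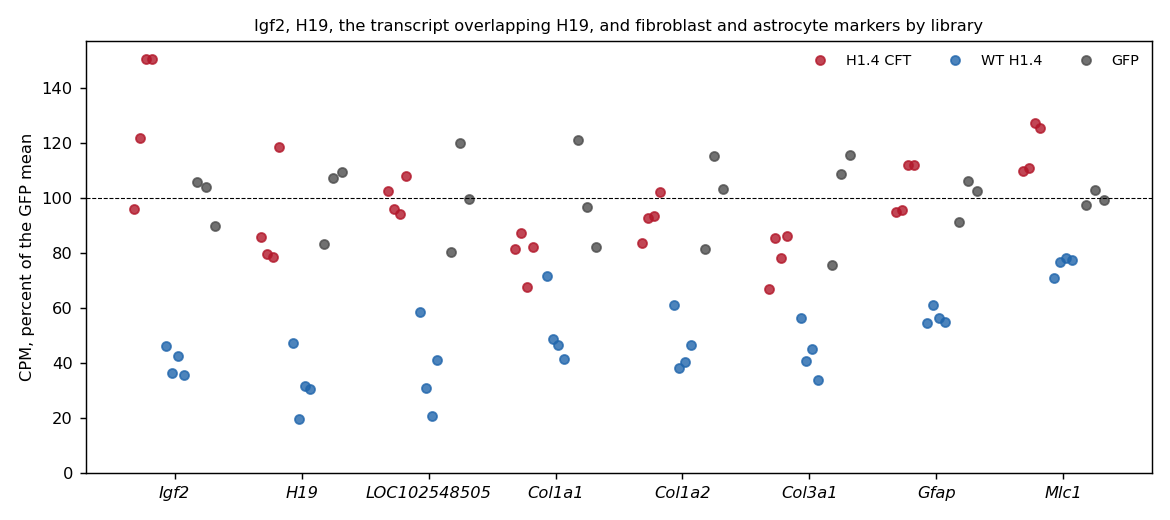
Level of Igf2, H19, LOC102548505, 3 collagen genes and the astrocyte genes Gfap and Mlc1 in each library, as a percentage of the GFP mean of the same gene (dashed line at 100), with H1.4 CFT left, WT H1.4 in the middle and GFP right for each gene. WT H1.4 points of Igf2, H19, Col1a2, Col3a1, Gfap and Mlc1 lie below all points of the other groups. Those of Col1a1 overlap H1.4 CFT (15.3 CPM in WT H1.4 replicate 1, 14.4 CPM in H1.4 CFT replicate 3). The collagen genes are the 3 of 15 tested fibroblast markers that fell in WT H1.4 against GFP, while 12 did not pass. Gfap and Mlc1 are among the 6 of 12 tested astrocyte markers that fell there.

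The genes whose log2 CPM followed that of Igf2 most closely over the 11 libraries were Prodh1 (Pearson r 0.969), the transcription factor Stat3 (0.959), Mlc1 (0.957), the matrix protein Fn1 (0.956) and the mitochondrial carrier Slc25a18 (0.955). For H19 they were Col1a2 (0.976), the kinase gene Prkcq (0.968), Arhgap18 (0.957), Smdt1 (0.931) and Col3a1 (0.928). These are the 5 closest of 12421 genes with a mean of at least 2 CPM, the values are descriptive, and they reflect the group structure and the shared libraries. With each library left out in turn, a step added after the data were seen, the 10 values stayed between 0.919 and 0.981. Igf2 and H19 had an r of 0.896 with each other. Igf2 had 0.825 with Peg3 and 0.698 with Plagl1, while H19 had 0.625 with Peg3 and 0.386 with Plagl1. Plagl1 and Peg3 had 0.870.

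Other imprinted genes were counted from lists of genes expressed from the paternal or the maternal copy in mouse. Of 18 tested paternally expressed genes, 3 were higher and 7 lower in H1.4 CFT neurons than in WT H1.4, with a median log2 fold change of -0.18. Against GFP, 3 were higher and 9 lower, with a median of -0.27. Of 26 tested maternally expressed genes, 2 were higher and 11 lower against WT H1.4 (median -0.13), and 2 were higher and 8 lower against GFP (median -0.12). Over all genes tested, 16.7% were higher and 19.2% lower against WT H1.4 (median 0.02), and 13.3% were higher and 16.2% lower against GFP (median 0.01). In WT H1.4 against GFP, 0 of either list passed by edgeR, by DESeq2 or by limma-voom. At an unadjusted p under 0.05 there were 1 paternally and 4 maternally expressed genes, and with the replicate number as a block 1 maternally expressed gene passed. In libraries numbered 3 and 4, 1596 of all genes passed in WT H1.4 against GFP, where 163 did over all libraries. In these libraries 16 maternally expressed genes passed in H1.4 CFT against GFP (5 higher, 11 lower), and 2 paternally and 6 maternally expressed genes passed in WT H1.4 against GFP. The count of 16 has no share over all genes beside it, and was not set against a background. In libraries numbered 1 and 2 GFP has 1 library, so no count is given there. Nnat, in the paternal list, and Blcap, in the maternal list, fell in H1.4 CFT against GFP by 0.61 and 0.59. Their spans overlap, so the lower counts of both lists may rest in part on the same reads. Some of these genes overlap others in GRCr8, such as Nnat with Blcap and Slc38a4 with 2 non-coding RNAs, so that their reads cannot be told apart. The same holds for Mlc1, Ins2, Trappc9, Dcn, Igf2r, Htra1, Pappa2, Grb14, Tet1 and Atrx, which overlap non-coding RNAs or pseudogenes, for P2ry12 with Med12l and Cspg4 with Cimap1c, and for Rtl1, whose span holds 6 miRNA genes.

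Slc38a4, a placental amino acid transporter gene, had 4.48, 4.05, 3.07 and 3.58 CPM in H1.4 CFT libraries, 10.5, 10.996, 12.3 and 10.4 CPM in WT H1.4 libraries and 11.6, 12.9 and 11.2 CPM in GFP libraries. All H1.4 CFT libraries were lower, and Slc38a4 fell by 1.54 on the log2 scale against WT H1.4 (adjusted p = 7.97e-08 by edgeR). Usp29, in the Peg3 cluster, fell by 0.37, in the comparison in which Peg3 itself rose. Inpp5f, an inositol phosphatase, fell by 0.35 against WT H1.4, and Nnat, a membrane proteolipid of developing neurons, fell by 0.61 against GFP (adjusted p = 5.53e-05 by edgeR). Peg10, a retrotransposon-derived gene, rose by 0.72 against WT H1.4 and by 0.71 against GFP (adjusted p = 8.31e-05 and 0.000238 by edgeR).

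Among maternally expressed genes, Htr2a, a serotonin receptor, fell by 1.87 in H1.4 CFT neurons against WT H1.4 (adjusted p = 4.42e-06 by edgeR). Dcn, a matrix proteoglycan that fibroblasts make, had 9.87, 10.02, 7.15 and 4.096 CPM in H1.4 CFT libraries, 21.8, 20.04, 16.5 and 15.7 CPM in WT H1.4 libraries and 17.8, 20.7 and 22.7 CPM in GFP libraries. Dcn was lower in all H1.4 CFT libraries, and it fell by 1.398 on the log2 scale against GFP (adjusted p = 0.00244 by edgeR). Trappc9, a vesicle trafficking subunit, fell by 0.31 against GFP. Cd81, a tetraspanin, rose by 0.23 against WT H1.4 (adjusted p = 0.000158 by edgeR).

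The Dlk1-Meg3 region held genes that moved in opposite directions. Rtl1, a retrotransposon-derived gene expressed from the paternal copy, had 2.38, 1.97, 3.24 and 4.20 CPM in H1.4 CFT libraries, 0.921, 0.579, 1.103 and 1.396 CPM in WT H1.4 libraries and 0.944, 0.588 and 0.541 CPM in GFP libraries. H1.4 CFT libraries were above all others. Rtl1 had few reads, with 35 to 81 in H1.4 CFT, 8 to 23 in WT H1.4 and 7 to 13 in GFP libraries. The log2 fold change of Rtl1 was 1.54 (SE 0.29, adjusted p = 0.000401 by edgeR) against WT H1.4 and 2.09 (SE 0.36, adjusted p = 0.000199 by edgeR) against GFP. In libraries numbered 1 and 2 the difference from GFP was 1.19 with an adjusted p of 0.0926 by edgeR.

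Wdr25, on the other side of Dlk1, rose by 0.50 against WT H1.4 and by 0.66 against GFP. LOC102555254, next to Rtl1 in the table, fell by 0.33 against WT H1.4 and by 0.40 against GFP. Wars1, a tRNA synthetase gene, and Begain, a synaptic gene, did not pass in any comparison. Dio3, the deiodinase that inactivates thyroid hormone and closes this imprinted cluster, was named after its values were seen. It had 0.318 CPM in H1.4 CFT, 0.866 CPM in WT H1.4 and 0.915 CPM in GFP libraries on average. Its log2 fold change was -1.39 for H1.4 CFT neurons against WT H1.4, given without a test. It rests on 2 to 11 reads in H1.4 CFT and 11 to 19 in WT H1.4 libraries.

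**Figure D4:**
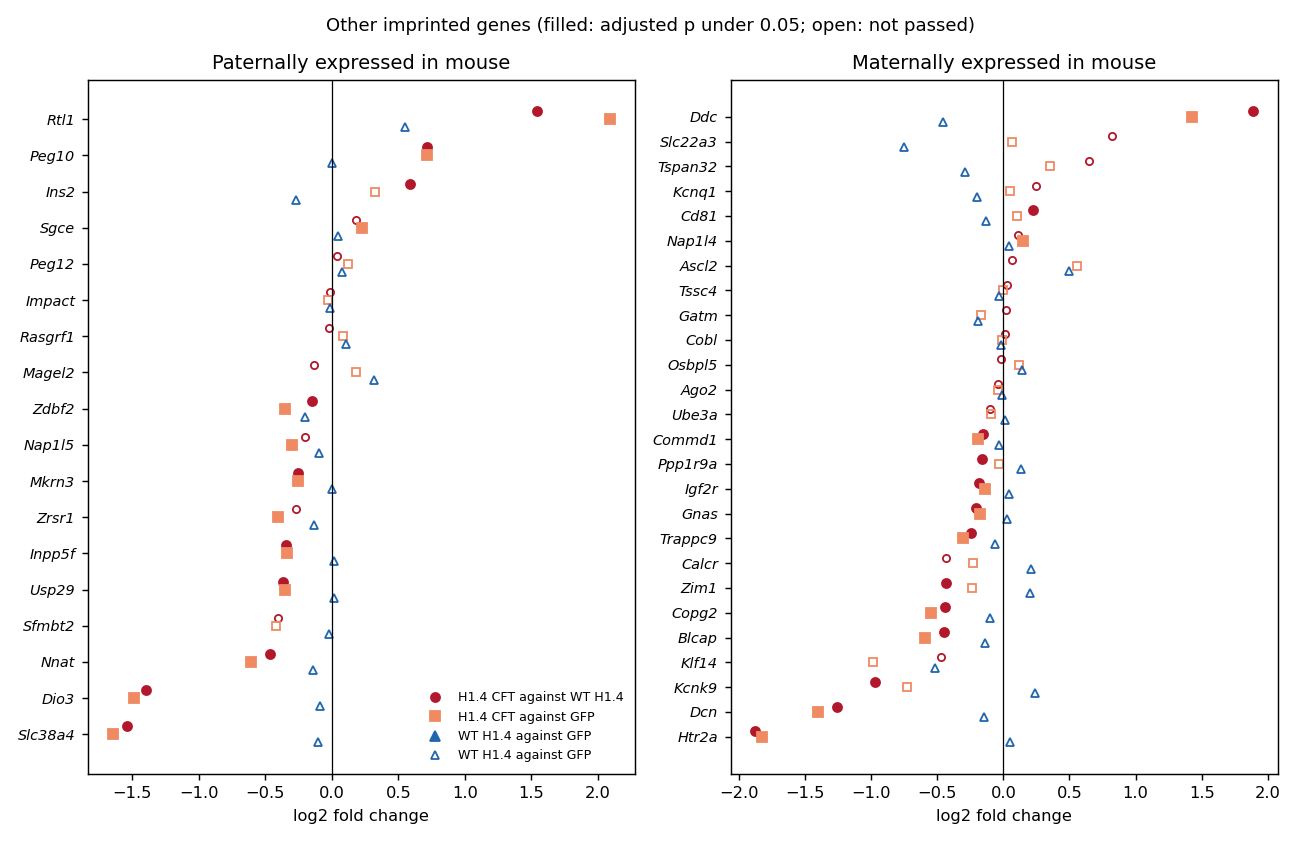
Log2 fold change of the other imprinted genes tested, with those expressed from the paternal copy in mouse on the left and from the maternal copy on the right; filled symbols passed an adjusted p under 0.05 (edgeR). Slc38a4 stands at -1.54 and Rtl1 at 1.54 for H1.4 CFT neurons against WT H1.4, and no symbol of WT H1.4 against GFP is filled.

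The IGF pathway around Igf2 comprised ligands, receptors, binding proteins and downstream adaptors. Of 27 tested genes, 5 were higher and 8 lower in H1.4 CFT neurons than in WT H1.4, and without H1.4 CFT replicate 3 these counts were 2 and 5. Against GFP, 4 were higher and 4 lower, and 2 and 3 with only these groups in the fit. Over all genes tested, 35.9% passed against WT H1.4 and 29.5% against GFP, and the share of this list against GFP is close to that background. Igf2r, the receptor that clears IGF2, fell by 0.19 against WT H1.4 (adjusted p = 0.0028 by edgeR) and by 0.14 against GFP (adjusted p = 0.0327 by edgeR). Grb14, an adaptor related to Grb10, fell by 0.72 against WT H1.4 and by 0.61 against GFP. Htra1, a protease, fell by 0.55 against WT H1.4, and Stc1, a secreted glycoprotein, fell by 0.71 against GFP (0.47 without GFP replicate 2, where the call was lost with an adjusted p of 0.0855 by edgeR). Pappa2, a protease that cuts IGF binding proteins, rose by 0.93 against GFP (adjusted p = 0.00384 by edgeR).

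Irs4, an insulin receptor substrate, was the 1 gene of this list that passed in WT H1.4 against GFP. It had 10.6, 12.2, 12.9 and 10.7 CPM in H1.4 CFT libraries, 8.50, 11.5, 10.5 and 9.28 CPM in WT H1.4 libraries and 7.41, 5.62 and 5.17 CPM in GFP libraries. GFP libraries were the lowest. Irs4 rose by 0.94 in H1.4 CFT against GFP (adjusted p = 8.47e-05 by edgeR) and by 0.71 in WT H1.4 against GFP (adjusted p = 0.0205 by edgeR). The second call was lost without WT H1.4 replicate 2 or 3 or GFP replicate 3 or 4, with adjusted p up to 0.228 by edgeR, and with limma-voom (0.0518). The list gave 2 genes in this comparison without H1.4 CFT replicate 1, 2 or 4, by DESeq2, and with the replicate number as a block, and 7 in libraries numbered 3 and 4. Of all genes, 163 passed here over all libraries and 1596 in those numbered 3 and 4. Igf1, named after its values were seen, had 3.25, 1.86 and 3.82 CPM on average in H1.4 CFT, WT H1.4 and GFP libraries. Its log2 fold change was 0.80 for H1.4 CFT neurons against WT H1.4, given without a test.

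Genes that write, read or protect imprints were counted beside the 35.9% of all genes that passed against WT H1.4 and the 29.5% against GFP. The counts of this list moved with the libraries used, and a difference from these shares was not tested. Of 29 tested, 3 rose and 3 fell in H1.4 CFT neurons against WT H1.4, and 10 passed without H1.4 CFT replicate 2. Against GFP 6 rose and 0 fell, with 10 passing without H1.4 CFT replicate 2 and 3 without H1.4 CFT replicate 4. In libraries numbered 3 and 4, 13 passed against WT H1.4 and 14 against GFP. The shares of 35.9% and 29.5% are those over all libraries and are no background for these counts. In WT H1.4 against GFP 0 passed by edgeR, DESeq2 or limma-voom, with 5 at an unadjusted p under 0.05, 1 passing without GFP replicate 2 and 5 passing in libraries numbered 3 and 4. In those libraries 1596 of all genes passed in this comparison, where 163 did over all libraries. Ehmt1 and Ehmt2, the histone H3 lysine methyltransferases GLP and G9a, rose by 0.17 and 0.24 against WT H1.4 (adjusted p = 0.0019 and 0.00197 by edgeR). Ehmt2 rose by 0.41 against GFP (adjusted p = 3.59e-05 by edgeR). Dnmt1, the maintenance DNA methyltransferase, rose by 0.20 against GFP (adjusted p = 0.00492 by edgeR). Tet1, which oxidises methylcytosine, fell by 0.38 against WT H1.4 (adjusted p = 0.00759 by edgeR), and Atrx, a chromatin remodeller, by 0.16. Ctcf, which binds the control region of Igf2 and H19, averaged 92.3 CPM in H1.4 CFT, 92.1 CPM in WT H1.4 and 91.0 CPM in GFP libraries and did not pass. The H1.4 CFT libraries also had lower neuron marker sums, beside the rises of Plagl1, Peg3 and Ndn. Over all genes, 16.7% rose and 19.2% fell in H1.4 CFT neurons against WT H1.4, and 13.3% rose and 16.2% fell against GFP. Of 16 neuron markers, 2 rose and 11 fell in H1.4 CFT neurons against WT H1.4, and 0 rose and 11 fell against GFP. In WT H1.4 against GFP 2 fell (Gad1 and Gad2), 1 did without WT H1.4 replicate 3, and 0 did without WT H1.4 replicate 2 or 4 or GFP replicate 3 or 4, while in libraries numbered 3 and 4 the counts were 4 higher and 7 lower. In those libraries 949 of all genes were higher and 647 lower. The part of the cell makeup in these results was not tested.

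The 3 remaining marker lists gave few calls. Over all genes, 35.9% passed in H1.4 CFT neurons against WT H1.4, 29.5% against GFP, and 0.943% in WT H1.4 against GFP. Of 10 listed microglia markers, 2 were tested and the others were below the low-count filter, such as Cx3cr1 and Trem2, at 0 in 9 and 8 libraries. The 2 tested rows do not describe microglia as a whole. Csf1r (1 to 27 reads) rose and P2ry12 (113 to 206 reads, overlapping Med12l) fell in H1.4 CFT neurons against WT H1.4 and also against GFP. Without GFP replicate 2 both calls against GFP were lost (adjusted p = 0.0533 for Csf1r and 0.0674 for P2ry12 by edgeR). P2ry12 was also lost in libraries numbered 1 and 2 against WT H1.4 (adjusted p = 0.0951) and against GFP (0.0861). Of 8 oligodendrocyte markers, Cspg4 rose against GFP in H1.4 CFT (0.42) and in WT H1.4 (0.58). Of 11 progenitor and cycling markers, Nes (0.32) and Vim (0.17) rose in H1.4 CFT neurons against WT H1.4, and Eomes (0.83) rose against GFP. The Eomes call was lost without GFP replicate 2, 3 or 4 (adjusted p = 0.0548, 0.0530 and 0.0557 by edgeR) and with only the compared groups in the fit (0.0532). Against WT H1.4, 7 progenitor markers passed without H1.4 CFT replicate 1 and 6 without replicate 2, and against GFP 3 and 4 did, and 2 without WT H1.4 replicate 2. With the replicate number as a block, 3 oligodendrocyte and 8 progenitor markers passed in H1.4 CFT neurons against WT H1.4 and 3 of each list in H1.4 CFT against GFP. Sox2 was listed at 0 in all libraries, while Sox9 held 644 to 1241 reads and Nes 1759 to 3469. Whether the Sox2 row could count Sox2 reads was not tested, so its 0 is not read as absence.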

How the data were processed

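Polyadenylated RNA of 11 libraries was sequenced. Per the submitters' processing notes, reads were aligned with STAR 2.7.2b to mRatBN7.2 and counted with HTSeq 0.10.0. The deposited files give unnormalized counts for each symbol, and the annotation release and strand setting are not given in the sources used here. Counts were fitted in R 4.3.3 with edgeR 4.0.16 over all libraries, with a term for group, TMM scaling, filterByExpr on the groups (at least 10 counts, at least 15 in total) and the robust quasi-likelihood test. The 5 summary entries of the counter were left out; between 45.2% and 46.0% of reads fell in no annotated feature. Benjamini-Hochberg adjustment ran over all 17294 genes tested, and genes passed, rose or fell at an adjusted p under 0.05.

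The genes of the set, the 12 marker and pathway lists (240 symbols, not all with a row) and the tests were chosen with earlier results of these data known. Named genes were the set, up to 4 genes of each list and comparison with the smallest p among those that passed, the 5 genes most like Igf2 and H19, and up to 3 tested neighbours on each side of both loci. Likeness is Pearson's r of log2(CPM + 0.5).

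Whether equal replicate numbers pair libraries was checked on residuals, since the labels give numbers but no shared culture or day. H1.4 CFT residuals correlated with those of WT H1.4 at 0.153, 0.183, 0.208 and 0.132 (numbers 1 to 4) and with those of GFP at 0.274, 0.133 and 0.188 (numbers 2 to 4). WT H1.4 residuals correlated with those of GFP at 0.221, 0.118 and 0.101. All exceed 0.1. The main fit has a term for group only, so its p-values and counts do not use this pairing. A fit with the replicate number as a block was run as an alternative, and its value is given where it changes a call.

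Alternatives were RLE scaling, DESeq2 1.42.0, limma-voom (limma 3.58.1), no low-count filter, at least 5 CPM in 3 libraries, a replicate block, only the compared groups, number pairs, and each library left out. The fit was tested on simulated data.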

Additional observations from a re-analysis of the deposited data

Results flagged for a closer look

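Of 18 groups of 4 libraries checked for a library far from the rest, 2 were found, and chance alone gives about 1 in 20. Plagl1 in WT H1.4 replicate 2 was at 45.7 CPM, and the nearest of the other WT H1.4 libraries was at 37.8 CPM. Peg3 in the same library was at 398.5 CPM, with the nearest at 395.0 CPM, a small gap among values that lie close together.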

How the results depend on the processing

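The counts of genes that passed in H1.4 CFT neurons against WT H1.4 stayed within 1.5 times of 6217 under every alternative run. In H1.4 CFT against GFP the count was 3331, against 5098, in libraries numbered 1 and 2, where the lone GFP library is assumed to vary like the other groups. In WT H1.4 against GFP the count of 163 was 268 by DESeq2, 462 with no low-count filter, 248 with the replicate block, 348 with only the 2 groups compared and 1596 in libraries numbered 3 and 4. The cause was not tested. In the fit on numbers 3 and 4, p-values of some genes were far smaller than in the main fit. For Plagl1 in H1.4 CFT against GFP the adjusted p was 1.49e-31 there and 0.000122 over all libraries (both by edgeR). Counts and p-values of that fit are therefore not comparable with those of the main fit. With each library left out, the counts ran from 5030 to 6444, from 3966 to 5132 and from 44 to 306. In WT H1.4 against GFP the count was 105, 91, 103 and 84 without WT H1.4 replicate 1, 2, 3 and 4, and 306, 44 and 45 without GFP replicate 2, 3 and 4. Of the 7 tested genes of the set, 2 to 3, 3 to 4 and 0 to 0 passed in these fits.

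Some directions reversed, each for a value that did not pass or had no test. Grb10 in H1.4 CFT neurons against WT H1.4 was 0.012 under the 5 CPM filter and 0.12 in numbers 1 and 2 (-0.089 to 0.063 with a library left out). In H1.4 CFT against GFP, Mest was 0.0087 under the 5 CPM filter (-0.020 to 0.020), LOC102548505 was -0.08 with the replicate block and -0.11 in numbers 3 and 4 (-0.12 to 0.15), and Cdkn1c was -0.084 in numbers 1 and 2. In WT H1.4 against GFP, numbers 1 and 2 gave -0.16 for Cdkn1c (-0.082 to 0.10), -0.16 for Plagl1 (-0.12 to 0.15), -0.34 for Wdr25, -0.30 for Rtl1 (0.55 over all libraries) and 0.037 for LOC102555254. Grb10 in H1.4 CFT against GFP also passed with no low-count filter (adjusted p = 0.0370 by edgeR) and in numbers 3 and 4 (0.000166 by edgeR, in a fit not comparable with the main one). The replicate block changed no other call in the set. In libraries numbered 1 and 2, several calls named in the report were lost, among them Wdr25 (0.24, adjusted p = 0.475), Dnmt1 (0.13, 0.121), Crabp2 (0.35, 0.419) and Eomes (0.39, 0.0534) in H1.4 CFT against GFP, Vim (0.03, 0.602) and Csf1r (1.12, 0.174) in H1.4 CFT neurons against WT H1.4, and Irs4 (0.41, 0.433) and Tagln (-0.40, 0.281) in WT H1.4 against GFP. The 5 CPM filter removed H19 and Dlk1, whose reads limit their precision.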
